A study of Homo sapiens with 6 samples.

Results

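The potassium, calcium and sodium channel genes comprised 94 of the 17471 genes listed for the AN3CA line, taken by symbol as every gene whose name begins with KCN, CACN or SCN and the pattern of a channel subunit. Of these, 61 belonged to potassium channels, 18 to calcium channels and 10 to sodium channels, and 5 were antisense or other non-coding RNAs named after a channel gene. AN3CA is an established human endometrial cancer (EC) cell line, labelled as epithelial cells of the uterus, which expresses *PAX2*, a paired-box transcription factor of Müllerian duct epithelium. RNA-Seq was compared between 3 libraries from cells carrying the empty hairpin vector pGFP-C-shLenti (shEV) and 3 libraries from cells carrying the same vector with a 29-mer hairpin against *PAX2* (shPAX2), both selected with puromycin. A single hairpin was used, the study's text elsewhere calls the AN3CA control scrambled, and the labels do not say whether the replicates were separate cultures, so the p-values measure only the spread between these libraries, which may be technical. The comparison asked how channel transcripts differed after *PAX2* knockdown.

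Voltage-gated channels are built from a large pore-forming alpha subunit, which selects the ion and senses voltage, and smaller auxiliary subunits, which set trafficking, gating and location. Potassium channels repolarize the membrane and set the resting potential, calcium channels couple voltage to calcium entry, and sodium channels carry the fast inward current of excitable cells. These genes are best known from nerve, heart and muscle, and many are also transcribed in epithelial and cancer cells, in which membrane potential and calcium entry bear on volume control, migration and proliferation.

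*PAX2* itself was at 4.03, 3.66 and 2.74 TPM (reads scaled by gene length and library total, with a fixed sum in each library) in shEV and at 0.916, 0.723 and 1.17 TPM in shPAX2. The groups did not overlap, and the shPAX2 mean was 26.9% of the shEV mean (log2 fold change -1.47, SE 0.18, adjusted *p* = 0.000294). Fold changes here are differences of log2(TPM + 0.5), shPAX2 minus shEV, fitted with limma across 13163 genes and adjusted by the Benjamini-Hochberg method, and they understate the change of genes near 0. To be past the threshold, a gene needed both an adjusted *p* under 0.05 and a log2 fold change of 1 or more in either direction.

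Libraries held 10778743 to 18302976 reads in shEV and 19506926 to 29536918 reads in shPAX2, so every shPAX2 library was the deeper, and a low member had a smaller chance of a read in shEV. Of 8 listed epithelial markers, 7 (*EPCAM*, *CDH1*, *KRT7*, *KRT8*, *KRT19*, *MUC1* and *CLDN4*) stayed under 0.5 TPM in every library, and *KRT18* alone was tested, so the defining markers of the labelled cell type were near absent in both groups. In bulk RNA, fewer cells expressing a gene and less RNA per cell cannot be told apart.

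Channel genes were few and uneven in AN3CA. A total of 33 members reached 0.5 TPM in at least 3 libraries and were tested. The other 61 did not, and 43 of those had at most 3 reads in every library. Summed over all members, channel transcripts made up 401, 404 and 416 TPM in shEV and 352, 338 and 326 TPM in shPAX2, with every shPAX2 library below every shEV library. *KCNE4*, a single-pass accessory subunit of voltage-gated potassium channels, alone supplied 48.2% to 51.8% of that sum. The calcium channel beta subunit *CACNB3* supplied 7.69% to 9.12%.

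**Figure D1:**
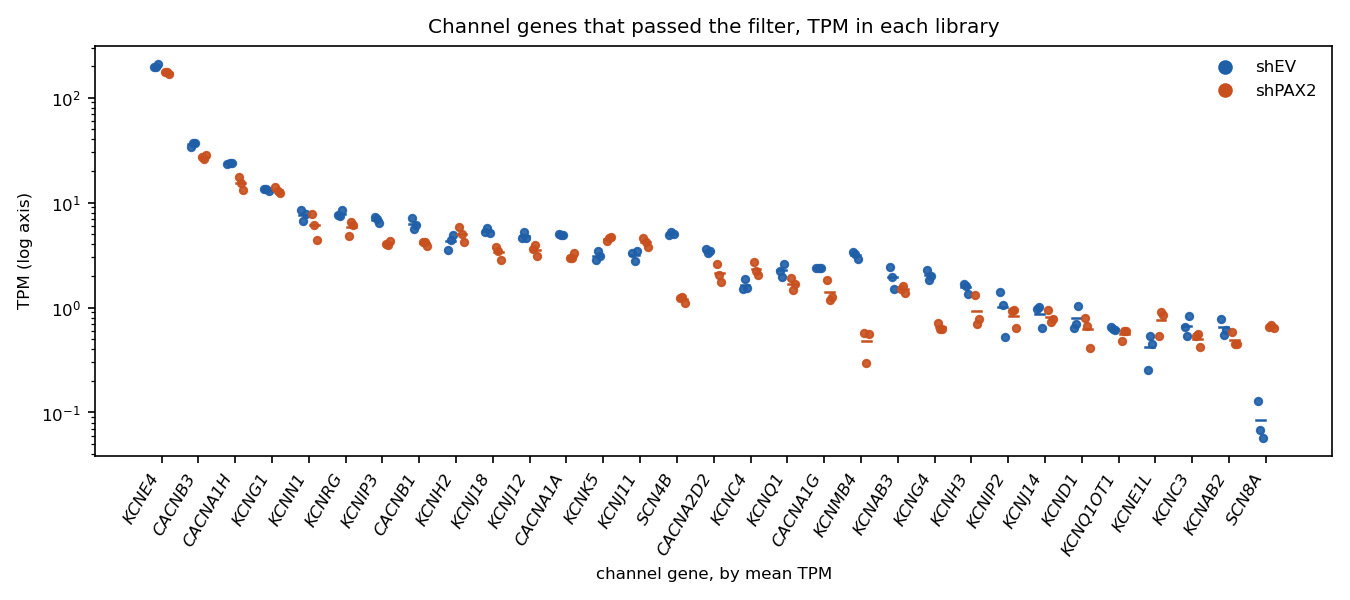
Levels of 31 of the 33 tested channel genes in TPM on a log axis, ordered by mean, with 1 point per library (blue, shEV; orange, shPAX2) and a dash at each group mean. *KCNE4* stood near 200 TPM, most members lay below 10 TPM, and the shPAX2 points of *KCNMB4*, *SCN4B* and *KCNG4* lay below their shEV points, whereas *SCN8A* showed the opposite order.

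Channel transcripts fell more often than they rose. Past the threshold, 3 tested members were lower in shPAX2 (*KCNMB4*, *SCN4B* and *KCNG4*, 9.09% of 33) and 0 were higher, against 3.11% of all tested genes lower and 1.43% higher. Without the fold requirement, at an adjusted *p* under 0.05 alone, 16 members were lower (48.5%) and 2 were higher (6.06%), against 30.5% and 12.2% of all tested genes. Under median-of-ratios scaling the split was 12 lower and 4 higher, with *KCNC4* and *KCNJ11* added to the higher members, and 19.9% of all tested genes were lower and 21.2% higher. The fitted change was below 0 for 27 of 33 members, as it was for 8354 of 13163 over all tested genes. The median was -0.33 on the log2 scale for members beside -0.10 over all tested genes. These medians became -0.23 and -0.000177 under median-of-ratios scaling. The libraries of the groups did not overlap for 22 members (66.7%), against 54.9% of all tested genes. An exact permutation test of a single gene over 3 against 3 libraries cannot go below *p* = 0.1. Of the tested members, 2 entered the tested set only through the group in which each was high, *SCN8A* among them, so their difference was in part built into the filter, and the counts above include both.

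**Figure D2:**
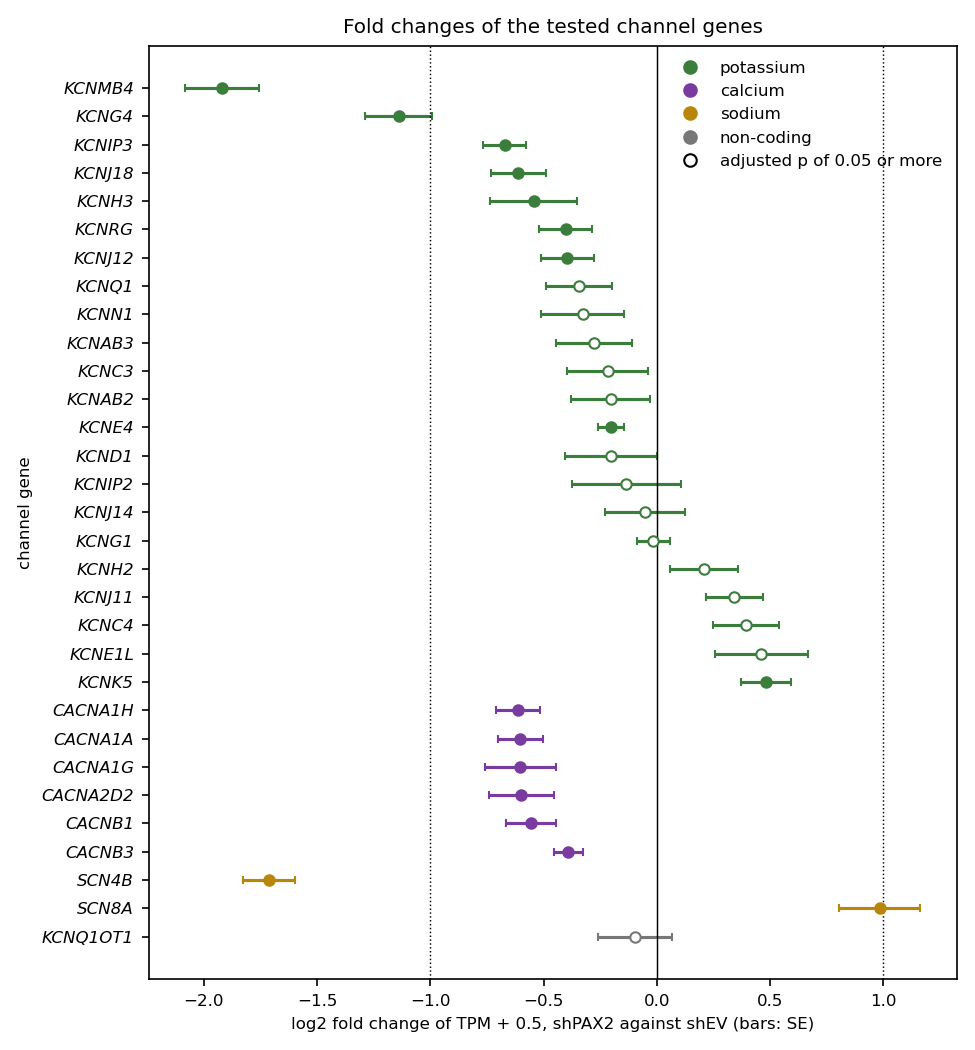
Log2 fold change of TPM + 0.5, shPAX2 against shEV, for 31 of the 33 tested channel genes, with bars of 1 SE, grouped by ion. Filled points have an adjusted *p* under 0.05 and dotted lines mark a log2 fold change of 1 in each direction. All 6 calcium channel points lay between -0.61 and -0.39, and *SCN8A* lay highest at 0.98.

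Of the 10 sodium channel genes, 3 were tested, and 6 had at most 3 reads in every library. The auxiliary subunit *SCN4B* fell, and the pore gene *SCN8A* had more reads in shPAX2, although its test is limited by the filter, which it passed only through shPAX2. *SCN8A*, the alpha subunit of the axon initial segment and nodes of Ranvier in nerve, was at 0.129, 0.0685 and 0.0575 TPM in shEV and at 0.656, 0.674 and 0.638 TPM in shPAX2. All 3 shPAX2 libraries lay above the shEV libraries, with no overlap (log2 fold change 0.98, SE 0.18, adjusted *p* = 0.00246). Behind these values stood 8, 7 and 6 *SCN8A* reads in shEV and 116, 105 and 72 in shPAX2, which is 8.54 times more relative to library depth (95% exact binomial interval 5.48 to 14.0). Such intervals pool the reads of the 3 libraries of each group, so they cover counting error only and leave out the spread between libraries. The reads carried no molecular identifiers, so even the counting error may not be covered in full.

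*SCN9A*, an alpha subunit of pain-sensing neurons, was listed at 0 in 5 libraries and at 0.0567 TPM in shEV replicate 3.

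The auxiliary subunit *SCN4B*, a single-pass adhesion-type beta subunit that speeds recovery and produces resurgent current, was the most abundant sodium channel transcript in shEV. It was at 4.91, 5.24 and 5.03 TPM in shEV and at 1.23, 1.25 and 1.11 TPM in shPAX2. The shPAX2 mean was 23.6% of the shEV mean, with tight replicates in both groups (log2 fold change -1.71, SE 0.11, adjusted *p* = 1.16e-05). Summed over the 10 genes, sodium channel transcripts went from 6.80 to 6.84 TPM in shEV down to 2.47 to 2.74 TPM in shPAX2, and most of that difference was *SCN4B*.

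The upstream sequences of the oppositely changed *SCN8A* and *SCN4B* differed in their content of CG dinucleotides. The 250 bases before each RefSeq gene start (promoter table of GRCh38.p14, matched to GRCh37 coordinates) are shown 5′ to 3′ on the gene's strand with each CG in capitals.

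*SCN8A*, chr12:51984767-51985016, plus strand: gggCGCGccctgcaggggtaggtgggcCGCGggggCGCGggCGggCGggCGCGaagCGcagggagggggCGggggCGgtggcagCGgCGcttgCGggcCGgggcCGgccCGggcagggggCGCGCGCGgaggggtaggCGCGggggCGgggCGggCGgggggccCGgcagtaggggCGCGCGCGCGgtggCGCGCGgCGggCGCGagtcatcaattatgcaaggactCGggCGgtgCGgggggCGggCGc
*SCN4B*, chr11:118016149-118016398, minus strand: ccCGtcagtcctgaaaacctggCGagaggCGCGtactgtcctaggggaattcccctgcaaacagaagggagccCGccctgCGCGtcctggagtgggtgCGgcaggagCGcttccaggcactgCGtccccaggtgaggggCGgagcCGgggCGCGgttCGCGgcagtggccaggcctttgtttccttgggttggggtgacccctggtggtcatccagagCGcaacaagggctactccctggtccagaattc

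The *SCN8A* window held 45 CG dinucleotides and was 85.6% G or C, and only 0.589% of 35116 windows of this length held as many CGs. The *SCN4B* window held 17 CGs at 66.0% G or C, a count reached by 39.0% of windows, beside a median of 11. Channel genes as a whole had a median of 17 over the 67 members with a window, of which 3 held as many CGs as *SCN8A* and 36 as many as *SCN4B*. These counts describe the letters of the windows, and no methylation was measured.

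Every tested calcium channel gene was lower in shPAX2. All 6 (*CACNA1H*, *CACNA1A*, *CACNA1G*, *CACNA2D2*, *CACNB1* and *CACNB3*) passed an adjusted *p* under 0.05, none passed the fold requirement, and their median log2 fold change was -0.60. Over all tested genes, 30.5% were lower at that adjusted *p*, and the groups did not overlap for 54.9%. The 6 calcium channel genes held pore, alpha2delta and beta subunits, so each kind of subunit with a tested member fell. None of the 3 gamma subunit genes was tested. Summed over the 18 genes, calcium channel transcripts were at 75.6 to 78.2 TPM in shEV and 52.0 to 56.8 TPM in shPAX2.

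*CACNA1H*, the pore of a low-voltage-activated T-type channel, was at 23.4, 23.7 and 23.6 TPM in shEV and at 17.6, 15.2 and 13.2 TPM in shPAX2. Its shEV libraries were nearly equal, and all 3 shPAX2 libraries were lower and more spread (log2 fold change -0.61, SE 0.10, adjusted *p* = 0.00117). *CACNA1H* shares exonic sequence with *TPSG1* on the opposite strand, and the strand setting of the counting is not given in the sources used here. The other T-type pore gene tested, *CACNA1G*, was at 2.39, 2.37 and 2.40 TPM in shEV and at 1.83, 1.18 and 1.25 TPM in shPAX2, which was also lower without overlap (log2 fold change -0.60, adjusted *p* = 0.0140). That call was lost without shPAX2 replicate 2 (-0.51, adjusted *p* = 0.0618). *CACNA1A*, the pore of the P/Q-type channel of presynaptic terminals, was at 4.99, 4.86 and 4.89 TPM in shEV and at 2.96, 2.96 and 3.27 TPM in shPAX2. Its shPAX2 mean was 62.4% of the shEV mean (log2 fold change -0.60, SE 0.10, adjusted *p* = 0.00158). *CACNA1C*, the L-type pore of heart and smooth muscle, was listed at 0 in 4 libraries and reached 0.0234 TPM at most. The L-type transcript was thus at the edge of detection in AN3CA, and no fold is given for it.

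Among the auxiliary calcium channel subunits, *CACNB3*, a cytoplasmic beta subunit that brings the pore to the membrane, was the most abundant, at 33.7, 36.8 and 37.2 TPM in shEV and at 27.4, 26.0 and 28.3 TPM in shPAX2. Its fall was the smallest of the 6, with the groups still apart (log2 fold change -0.39, SE 0.07, adjusted *p* = 0.00159). *CACNB1*, the beta subunit best known from skeletal muscle, was at 7.16, 5.61 and 6.11 TPM in shEV and at 4.21, 4.24 and 3.86 TPM in shPAX2 (log2 fold change -0.56, adjusted *p* = 0.00394). *CACNA2D2*, an extracellular alpha2delta subunit that raises surface density and is bound by gabapentinoids, was at 3.61, 3.29 and 3.45 TPM in shEV and at 2.60, 2.06 and 1.74 TPM in shPAX2 (log2 fold change -0.60, SE 0.14, adjusted *p* = 0.00948). In both genes the lowest shEV library was above the highest shPAX2 library. *CACNB4*, a beta subunit of brain that lay under the TPM filter and is named here after its values were seen, held 10, 12 and 21 reads in the shEV libraries and 3, 6 and 1 in those of shPAX2, or 7.02 times fewer relative to library depth (95% exact binomial interval 3.48 to 15.7). *CACNA2D1* was listed at 0 in 4 libraries and at no more than 0.0487 TPM.

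**Figure D3:**
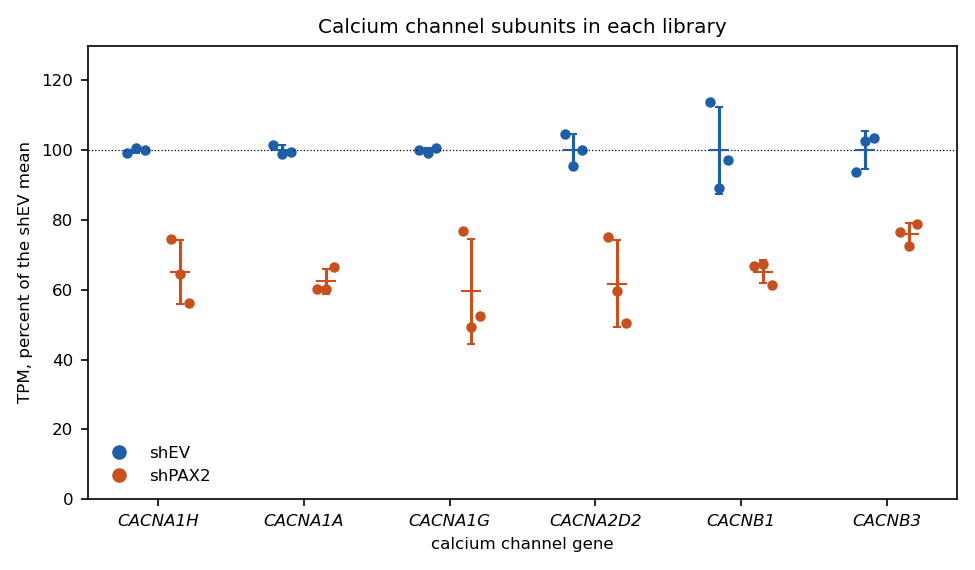
TPM of the 6 tested calcium channel genes in each library as a percentage of the gene's shEV mean (vertical axis from 0), with bars of mean ± SD over 3 libraries. The shPAX2 means stood at 59.6% (*CACNA1G*) to 75.9% (*CACNB3*) of shEV, and no shPAX2 point reached a shEV point of the same gene. Over all tested genes, the groups did not overlap for 54.9%.

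*CACNA1H*, *CACNA1A* and *CACNA2D2* carried an exact copy of the core letters bound by REST, a zinc finger repressor that silences neuronal genes, channel genes among them, outside the nervous system. The letters searched on both strands of GRCh37 were TTCAGCACC, any 2 bases and GGACAG, and they occurred at 251 places on the assembled chromosomes. Within a gene or 10 kb of it they were found for 7 of the 93 members with a position (7.53%) and for 0.795% of 16358 genes of the table, although members span a median of 66.8 kb against 28.8 kb for all genes, so a longer stretch was searched. The copies in the genes that were tested are shown 5′ to 3′ with 10 flanking bases, the matched letters in capitals and the coordinates of the matched letters.

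*CACNA1H*, chr16:1238874-1238890, plus strand: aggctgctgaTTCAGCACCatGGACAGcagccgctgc
*CACNA1A*, chr19:13552879-13552895, minus strand: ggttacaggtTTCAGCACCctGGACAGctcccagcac
*CACNA2D2*, chr3:50442868-50442884, plus strand: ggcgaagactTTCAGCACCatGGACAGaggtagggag
*KCNH2*, chr7:150681164-150681180, minus strand: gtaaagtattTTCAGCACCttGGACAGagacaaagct
*KCNAB2*, chr1:6112666-6112682, plus strand: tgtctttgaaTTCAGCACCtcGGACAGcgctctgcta

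The first 3 copies were intronic, at 35.8 kb, 191 kb and 98.8 kb from the gene start, the *KCNAB2* copy was intronic at 61.7 kb, and the *KCNH2* copy lay 5.77 kb upstream of the gene. *KCNH4* and *CACNA2D3*, which also held a copy, were too low to test. *REST*, named here after its values were seen, was at 34.4, 31.4 and 36.3 TPM in shEV and at 19.3, 21.5 and 21.1 TPM in shPAX2 (log2 fold change -0.71, SE 0.07, adjusted *p* = 0.000126). Its transcript fell in the same direction as *CACNA1H*, *CACNA1A* and *CACNA2D2*, while *KCNH2* (0.21) and *KCNAB2* (-0.20) did not pass the test. Outside the members, only *SYP*, *CHGA*, *CHGB*, *HCN2* and *VGF* were looked at. The letters were found for *CHGA*, a neuron marker, and *HCN2*, a pacemaker channel gene. These copies lay 0.373 kb and 1.79 kb from the gene start, and both genes were higher in shPAX2. The neuron markers *SYP* (log2 fold change 2.56) and *CHGB* (1.40), for which no copy was found, were higher in shPAX2 as well. *CHGA* and *CHGB* entered the tested set only through shPAX2. The part of *REST* in any of these values was not tested. A match of letters does not show binding.

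Most tested potassium channel genes had a fitted change below 0 (18 of 23), as did 8354 of 13163 over all genes. In the reported fit the changes past the threshold were in 2 modulatory subunits, *KCNMB4* and *KCNG4*. Of 23 tested, 8 were lower (34.8%) and 1 was higher (4.35%) at an adjusted *p* under 0.05, a lower share near the 30.5% of all tested genes, beside 12.2% higher. Under median-of-ratios scaling 4 were lower (17.4%) and 3 higher, against 19.9% lower and 21.2% higher over all tested genes under that scaling. The lower share of potassium channel genes was thus not above that of all tested genes there. The summed level of all 61 genes went from 318 to 330 TPM in shEV down to 271 to 292 TPM in shPAX2. Among the 8 tested auxiliary subunits 4 were lower, of which *KCNMB4* and *KCNIP3* kept the call under median-of-ratios scaling. Among the 7 tested voltage-gated alpha subunits 1 was lower, *KCNH3*, a brain subunit of the ether-a-go-go family (log2 fold change -0.54, adjusted *p* = 0.0469). *KCNH3* shares exonic sequence with *MCRS1* on the opposite strand, and the strand setting of the counting is not given in the sources used here. Its call was lost in 9 of the 14 alternatives, with adjusted *p* up to 0.167.

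*KCNMB4*, the beta4 subunit that slows and desensitizes the large-conductance calcium-activated (BK) channel in neurons, showed the largest fall of the tested members. It was at 3.35, 3.21 and 2.93 TPM in shEV and at 0.567, 0.298 and 0.564 TPM in shPAX2. The groups were far apart, and the shPAX2 mean was 15.1% of the shEV mean (log2 fold change -1.92, SE 0.16, adjusted *p* = 4.07e-05). *KCNMA1*, the pore subunit to which it binds, was at 0.0284 TPM or less in all 6 libraries, so the beta subunit was transcribed with its pore near 0. The intermediate-conductance pore gene *KCNN4* was also near 0, with 0.148 TPM at most. The small-conductance pore gene *KCNN1* was the 1 tested calcium-activated pore gene, at 8.41, 6.69 and 7.79 TPM in shEV and at 7.72, 6.11 and 4.44 TPM in shPAX2, with overlapping groups (log2 fold change -0.33, SE 0.18, adjusted *p* = 0.180). Without shPAX2 replicate 1, the highest of its group, *KCNN1* passed an adjusted *p* of 0.05 (-0.50, adjusted *p* = 0.0277), and without shPAX2 replicate 3, the lowest, it stood at -0.14 (adjusted *p* = 0.471).

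*KCNG4*, a silent subunit that forms no channel alone and modifies the delayed rectifiers into which it assembles, was at 2.29, 1.84 and 2.0 TPM in shEV and at 0.709, 0.618 and 0.631 TPM in shPAX2. Both groups were tight and wide apart (log2 fold change -1.14, SE 0.15, adjusted *p* = 0.000398). With a pseudocount of 1 its fold change was -0.88, short of the threshold. *KCNG1*, a silent subunit of the same family, was far more abundant and near level, at 13.4, 13.4 and 13 TPM in shEV and 14.1, 12.9 and 12.4 TPM in shPAX2 (log2 fold change -0.01, SE 0.07, adjusted *p* = 0.885).

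The leading potassium channel transcript differed little. *KCNE4* was at 194, 194 and 208 TPM in shEV and at 177, 175 and 167 TPM in shPAX2. The groups did not overlap and the fall was small (log2 fold change -0.20, SE 0.06, adjusted *p* = 0.0204), and under median-of-ratios scaling the call was lost (-0.09, adjusted *p* = 0.189), as it was with the replicate number as a block (adjusted *p* = 0.0505), without shEV replicate 3 (0.0717), without shPAX2 replicate 2 (0.0620) and without shPAX2 replicate 3 (0.0671). *KCNQ1*, the pore of the slow cardiac and epithelial potassium current, was at 2.22, 1.96 and 2.61 TPM in shEV and at 1.89, 1.47 and 1.66 TPM in shPAX2 (log2 fold change -0.34, SE 0.15, adjusted *p* = 0.0875). It shares exonic sequence with the antisense RNA *KCNQ1OT1*, the 1 non-coding member tested, which had a log2 fold change of -0.10 (adjusted *p* = 0.668).

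*KCNIP3*, a calcium-binding protein that partners voltage-gated potassium channels and also acts as a transcriptional repressor, was at 7.28, 6.90 and 6.39 TPM in shEV and at 4.01, 3.98 and 4.35 TPM in shPAX2. Its shPAX2 mean was 60% of the shEV mean, with no overlap (log2 fold change -0.67, SE 0.10, adjusted *p* = 0.000699). *KCNRG*, a soluble regulator that hinders assembly of voltage-gated channels, had a log2 fold change of -0.40 (adjusted *p* = 0.0232) and shares exonic sequence with *TRIM13* on the same strand. The inward rectifier genes *KCNJ12* (log2 fold change -0.40, adjusted *p* = 0.0233) and *KCNJ18* (-0.61, adjusted *p* = 0.00367) were lower as well, but they are near-identical paralogs between which reads could be split, so their separate values are uncertain. The calls of *KCNRG* and *KCNJ12* were lost under median-of-ratios scaling (adjusted *p* = 0.0615 and 0.0682), that of *KCNRG* also without shEV replicate 3 (0.0823), and that of *KCNJ12* also without shEV replicate 2 (0.0845) or shPAX2 replicate 3 (0.0824). *KCNJ11*, the pore of the ATP-sensitive channel, was at 3.34, 2.76 and 3.47 TPM in shEV and at 4.61, 4.18 and 3.73 TPM in shPAX2 (log2 fold change 0.34, adjusted *p* = 0.0549), and *ABCC8*, the sulfonylurea receptor that completes this channel, was at 2.54, 2.41 and 2.91 TPM in shEV and 2.19, 1.67 and 1.48 TPM in shPAX2 (log2 fold change -0.46, adjusted *p* = 0.0365).

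*KCNC4*, a fast voltage-gated pore subunit, was at 1.51, 1.86 and 1.55 TPM in shEV and at 2.71, 2.21 and 2.03 TPM in shPAX2 (log2 fold change 0.39, adjusted *p* = 0.0560). Like *KCNJ11*, it was higher in every shPAX2 library than in any shEV library, and both passed an adjusted *p* under 0.05 under median-of-ratios scaling (0.0308 and 0.0217 for *KCNC4* and *KCNJ11*) and in the voom fits of recovered reads.

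*KCNK5*, an acid-sensitive background (leak) channel of the KCNK family found in epithelia, was the 1 potassium channel gene that rose at an adjusted *p* under 0.05 in the reported fit. It was at 2.81, 3.44 and 3.07 TPM in shEV and at 4.34, 4.57 and 4.69 TPM in shPAX2, with no overlap (log2 fold change 0.48, SE 0.11, adjusted *p* = 0.00782). It was also the 1 tested member on chromosome 6, where the median change of the other 624 tested genes was 0.39 on the log2 scale, beside -0.11 for genes off that chromosome, and 37.3% of the 624 lay above *KCNK5*. The part of the chromosome-wide difference in the *KCNK5* value was not tested. *KCNH2*, a pore subunit of the ether-a-go-go family known from cardiac repolarization and from several cancers, was at 3.51, 4.37 and 4.94 TPM in shEV and at 5.84, 5.05 and 4.16 TPM in shPAX2, with overlapping groups (log2 fold change 0.21, SE 0.15, adjusted *p* = 0.295). Its value moved from 0.088 without shEV replicate 1 and 0.10 without shPAX2 replicate 1 to 0.32 without shPAX2 replicate 3.

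Several members too low for the TPM filter still differed in their reads. *KCNC1*, a fast delayed rectifier pore subunit of rapidly firing neurons that is named here after its values were seen, held 4 reads in each shEV library and 68, 54 and 49 in the shPAX2 libraries. It was 8.72 times higher relative to library depth (95% exact binomial interval 4.87 to 17.2). Its TPM was at 0.0891, 0.0541 and 0.0529 in shEV and at 0.531, 0.479 and 0.60 in shPAX2, so the groups were well separated around the filter. *KCNH1*, an ether-a-go-go pore subunit known from tumor cells, went the other way, from 5, 8 and 8 reads in the shEV libraries to 0, 1 and 1 in those of shPAX2 (17.1 times lower, interval 4.19 to 151). *KCNK3*, another acid-sensitive background channel, was at 0 reads in every shEV library and at 3, 8 and 2 in shPAX2, or at least 2.65-fold higher when 3 reads over the 3 shEV libraries are taken as the limit that a count of 0 allows. *KCND3*, a transient outward current pore subunit, gave 1, 0 and 2 reads for shEV and 0, 11 and 7 for shPAX2, with overlapping groups. *KCNJ2*, a classical inward rectifier, gave 1, 4 and 7 reads for shEV and 0, 1 and 0 for shPAX2 (19.6 times lower, interval 2.90 to 838). The last 3 were named after their values were seen.

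**Figure D4:**
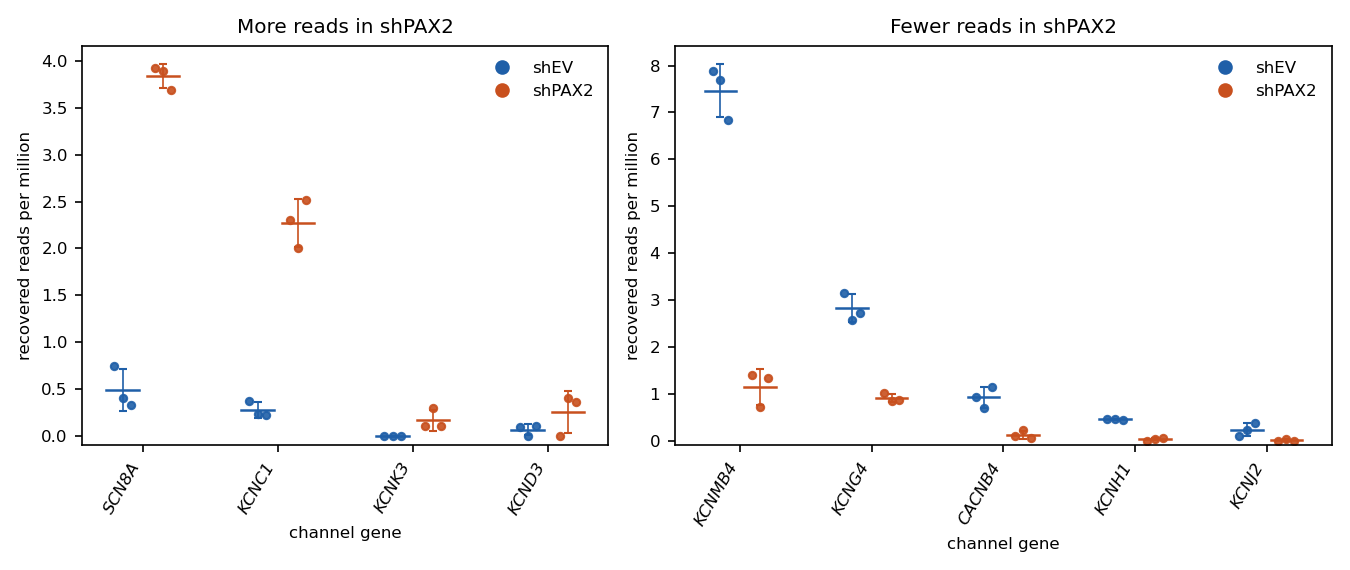
Reads per 1000000 reads of each library, with bars of mean ± SD over 3 libraries, for channel genes with more reads in shPAX2 (left) and with fewer (right), chosen after their values were seen. *SCN8A* and *KCNC1* stood well above their shEV points in all 3 shPAX2 libraries, *KCNK3* had 0 reads in shEV, and the *KCND3* groups overlapped.

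With a filter of at least 10 reads in 3 libraries and limma's voom fit on reads recovered from the TPM values, an alternative added after the values were seen, 35 members were tested. In that fit 5 members were lower past the threshold (14.3%, among them *KCNMB4*, *SCN4B*, *KCNG4* and *CACNB4*) against 4.6% of all tested genes, and 2 were higher (*SCN8A* and *KCNC1*, 5.71%) against 1.81%. The fold changes of the low members were larger on that scale, at 3.04 for *SCN8A*, 2.97 for *KCNC1* and -2.81 for *CACNB4*. *SCN8A* and *KCNC1* passed this read filter only through shPAX2, and *CACNB4* only through shEV. Their differences were thus in part built into the filter, and the counts of this fit include them.

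The upstream windows of *KCNC1*, which was higher in this fit, and of *KCNG4*, which was lower, are shown as above. The windows printed here were chosen by the direction of change, so they say nothing of a link between CG content and direction.

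*KCNC1*, chr11:17756078-17756327, plus strand: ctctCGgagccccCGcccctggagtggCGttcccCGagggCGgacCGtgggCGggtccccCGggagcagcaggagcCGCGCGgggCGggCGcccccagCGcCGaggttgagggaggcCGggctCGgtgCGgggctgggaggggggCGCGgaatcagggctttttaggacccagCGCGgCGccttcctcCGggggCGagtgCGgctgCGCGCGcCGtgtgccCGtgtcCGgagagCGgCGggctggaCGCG
*KCNG4*, chr16:84273619-84273868, minus strand: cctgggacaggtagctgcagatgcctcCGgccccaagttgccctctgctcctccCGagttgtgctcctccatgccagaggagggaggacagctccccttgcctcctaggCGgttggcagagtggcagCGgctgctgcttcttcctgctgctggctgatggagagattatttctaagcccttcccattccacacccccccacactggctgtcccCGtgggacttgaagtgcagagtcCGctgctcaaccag

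The *KCNC1* window held 36 CGs at 79.2% G or C, a count reached by 4.85% of all windows and by 10 of the 67 member windows, and the *KCNG4* window held 6 CGs at 62.0%, reached by 61.9% of all windows and by 52 of the 67. Neither *KCNC1* nor *SCN8A* held the REST letters within the gene or 10 kb of it, which says only that these exact letters are not in the stretch searched.

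Some listed markers of other cell types also differed between the groups. Of 13 neuron markers looked for, only 8 were listed for AN3CA. Their summed level was 4.78 to 6.05 TPM in shEV and 36.0 to 38.4 TPM in shPAX2, through *SYP* (5.52 to 34.9 TPM in mean), *CHGA* and *CHGB*. *SNAP25*, *ELAVL3*, *RBFOX3*, *NEFL* and *SYT1* stayed under 0.5 TPM in every library. Of 8 smooth muscle and stromal markers looked for, 6 were listed. These summed to 99.4 to 106 TPM in shEV and 475 to 594 TPM in shPAX2, through *ACTA2* and *COL3A1*. *PDGFRB* (means 1.04 and 0.724 TPM) and *COL1A1* (1.02 and 0.888 TPM) were not higher, and *MYH11* was near 0. The 8 muscle markers listed, of 9, summed to no more than 1.28 TPM in any library. The 5 leukocyte and endothelial markers listed, of 7, summed to 0.948 to 1.71 TPM in shEV and 1.75 to 2.51 TPM in shPAX2. The 8 epithelial markers summed to 11.2 to 13.3 TPM in shEV and 12.4 to 18.1 TPM in shPAX2. The part of these shifts in the channel values was not tested.

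Few genes of the wider ion transport machinery changed strongly. Of 103 listed genes for pumps, exchangers, intracellular and TRP channels and channel-binding partners, 61 were tested, with 28 lower (45.9%) and 5 higher (8.20%) at an adjusted *p* under 0.05, against 30.5% and 12.2% of all tested genes. The median log2 fold change was -0.25 beside -0.10 over all genes. Under median-of-ratios scaling 20 were lower (32.8%) and 7 higher (11.5%), against 19.9% and 21.2% of all tested genes under that scaling. The 2 genes lower past the threshold made up 3.28% of the list, near the 3.11% of all tested genes. Past the threshold were *SLC8A1* and *NEDD4L*, which were lower, and *HCN2*, which was higher. *SLC8A1*, the plasma membrane sodium-calcium exchanger, was at 2.77, 1.94 and 1.93 TPM in shEV and at 0.0837, 0.202 and 0.246 TPM in shPAX2 (log2 fold change -2.0, SE 0.19, adjusted *p* = 7.39e-05). *NEDD4L*, a ubiquitin ligase that removes sodium channels from the membrane, was at 16.2, 18.2 and 19.8 TPM in shEV and at 7.80, 7.19 and 6.81 TPM in shPAX2 (log2 fold change -1.25, SE 0.09, adjusted *p* = 1.87e-05). *HCN2*, a hyperpolarization-activated pacemaker channel, was at 0.164, 0.564 and 0.422 TPM in shEV and at 2.53, 1.87 and 2.04 TPM in shPAX2 (log2 fold change 1.60, SE 0.21, adjusted *p* = 0.000416). None of these groups overlapped, and *SLC8A1* entered the tested set only through shEV, where it was high.

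By list, and to be read against the same 30.5% lower and 12.2% higher over all tested genes, pumps and exchangers gave 8 lower and 0 higher of 16 tested, with the calcium pumps *ATP2B1* (-0.43), *ATP2B4* (-0.34) and *ATP2C1* (-0.43) among the lower. Store-operated and intracellular calcium channels gave 8 lower and 0 higher of 15, including the inositol trisphosphate receptors *ITPR1* (-0.65) and *ITPR2* (-0.49), the ryanodine receptor *RYR2* (-0.38) and the calcium sensor *STIM2* (-0.28). TRP and other cation channels gave 7 lower and 1 higher of 15. Channel-binding partners were mixed, with 5 lower (33.3%) and 4 higher (26.7%) of 15, the higher including the scaffold *AKAP5* (0.87) and the calmodulin gene *CALM3* (0.33). Under median-of-ratios scaling the lists gave, in the same order, 7 lower and 2 higher, 6 and 0, 4 and 1, and 3 and 4. Over all tested genes, 19.9% were lower and 21.2% higher under that scaling. *HCN2*, which rose, held the REST letters in an intron, 1.79 kb from its start.

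*HCN2*, chr19:591670-591686, plus strand: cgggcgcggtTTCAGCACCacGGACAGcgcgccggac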

How the data were processed

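RNA-Seq libraries of AN3CA cells (3 shEV, 3 shPAX2) were prepared with a stranded total RNA kit. Per the labels, the submitters' processing notes name bcl2fastq, STAR, Subread, featureCounts, edgeR and hg19, without roles. The authors deposited TPM values, which sum to 1000000 in each library. Within genes the TPM values were ratios of whole reads (100% of genes within a relative deviation of 1e-09), so reads were recovered, exactly for 98.7% of 16959 genes on simulated data. Genes that reached 0.5 TPM in 3 or more libraries entered limma 3.58.1 (R 4.3.3, trended and robust eBayes) on log2(TPM + 0.5), with a two-sided test. On simulated data for this comparison, 89.8% of genes changed by 1.5 and 96.9% of genes changed by 2 (log2) were called, and 6.67% of calls were unchanged genes. The simulation gave every gene the same dispersion and changed 200 genes, whereas 5629 genes had an adjusted *p* under 0.05 in the data. These shares may therefore not hold for the data. The members and lists were chosen with earlier results of these data known. Named genes were *PAX2*, members past the threshold, the 4 potassium, 4 calcium and 2 sodium members of highest mean TPM, a fixed list of 13 channel genes, up to 2 genes past the threshold per other list, and members under the filter with a 10-fold difference and at least 30 reads. Some genes that this rule names are not reported here, and the counts include them. Genes are placed by GENCODE on GRCh37. Same-numbered replicates did not deviate together (correlations -0.0523, 0.0815 and 0.00140), so numbers were not taken as pairs. Alternatives were pseudocounts 0.1 and 1, filters, median-of-ratios scaling, a replicate block, voom and each library left out.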

Additional observations from a re-analysis of the deposited data

How the results depend on the processing

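The count of channel genes past the threshold was 3 in the fit reported. It was 2 with a pseudocount of 1, at which *KCNG4* (-0.88) missed the fold requirement, 4 (1 higher) under median-of-ratios scaling, 5 with a pseudocount of 0.1, 5 with voom on the recovered reads, 7 with voom and the read filter (added after the values were seen), and 3 to 4 with each library left out. The other ion transport genes past the threshold numbered 8 with voom and the read filter, and 2 to 5 with each library left out, the 5 being without shPAX2 replicate 1. The cause of these moves was not tested. Channel genes at an adjusted *p* under 0.05 numbered 18, and 14 to 22 over all alternatives (14 to 18 with each library left out), all genes past the threshold 440 to 835 (484 to 610) and the *PAX2* log2 fold change lay between -1.87 and -1.20 (-1.61 to -1.36). With the replicate block, 588 genes in all, 3 channel genes and 3 other ion transport genes were past the threshold, 16 channel genes passed an adjusted *p* under 0.05 and *PAX2* stood at -1.47 (adjusted *p* = 0.00207). *KCNE4* and *KCNH3* (adjusted *p* = 0.0530) were the channel calls lost under the block. A near-level gene changed sign without being called. *KCNG1* was at 0.088 under median-of-ratios scaling and at 0.0151 and 0.0152 in the voom fits without and with the read filter. With each library left out, *KCNG1* lay between -0.063 and 0.023, above 0 without shPAX2 replicate 3. *SCN8A* could not be tested in fits without an shPAX2 library. Depth limited the 46 members with under 10 reads over the 6 libraries, for which the fold requirement could not be tested.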
